A study of Mus musculus with 6 samples.

Results

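Small nucleolar RNAs (snoRNAs) and the non-coding genes named for hosting them were examined in RNA sequencing of SLAM-LSK cells, sorted mouse marrow cells rich in haematopoietic stem cells. Members were chosen by symbol: 53 C/D snoRNA rows (Snord followed by a digit), 33 H/ACA snoRNA rows (Snora followed by a digit) and 15 host gene rows (Snhg followed by a digit, and Gas5), giving 101 of the 18465 rows of the table. The data were 3 libraries of the MecomWT:R751W genotype, in which 1 Mecom allele carries the R751W substitution, and 3 libraries of WT mice, all on the C57BL/6 background. Cells of both groups were sorted as Lin- Sca1+ cKit+ CD150+ CD48- directly into a lysis reagent, with no other treatment given in the labels. The replicates are labelled biological, but separate animals are not stated, and p-values then measure only the spread between these samples, which may be technical. The labels list several library kits without saying which was used, and give no ages. The deposited values are TPM, a level per gene length that sums to 1000000 in each library.

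C/D snoRNAs carry a C box near the 5′ end and a D box near the 3′ end, and guide the methyltransferase fibrillarin to add 2′-O-methyl groups to ribosomal and small nuclear RNA. H/ACA snoRNAs fold into hairpins joined by an H box, end in an ACA box, and guide the pseudouridine synthase dyskerin. In mammals most snoRNAs are cut out of introns of host genes, among them ribosomal protein genes and the Snhg genes, whose spliced RNA is classed as non-coding.

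The sequences of the members that the levels and the smallest p-values below turn on are shown here from the GENCODE M21 transcripts of the GRCm38 build, 5′ to 3′. Capitals mark TGATGA (C box) in the first 40 bases and CTGA (D box) in the last 20 bases of the C/D snoRNAs. Snord15b, at chr7:99479563-99479707 on the minus strand, was the C/D snoRNA of highest level. Snord17, at chr2:144265979-144266216 on the minus strand, is the longest C/D member and had its 3 lowest values in the 3 MecomWT:R751W libraries. Snord22, at chr19:8725866-8725991 on the plus strand, had the second highest level of the class and no TGATGA in that window. Snord110, at chr2:130275506-130275573 on the plus strand, was among the members of smallest p. Snord118, the U8 snoRNA, at chr11:69073427-69073561 on the plus strand, is a member with no host.
Snord15b: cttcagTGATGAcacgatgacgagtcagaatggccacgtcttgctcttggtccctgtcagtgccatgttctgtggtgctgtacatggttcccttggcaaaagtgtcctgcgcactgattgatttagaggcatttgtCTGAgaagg
Snord17: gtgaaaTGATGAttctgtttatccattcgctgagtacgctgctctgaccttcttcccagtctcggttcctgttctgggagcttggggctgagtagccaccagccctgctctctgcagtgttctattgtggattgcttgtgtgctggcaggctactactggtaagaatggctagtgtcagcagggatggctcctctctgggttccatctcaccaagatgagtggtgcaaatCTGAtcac
Snord22: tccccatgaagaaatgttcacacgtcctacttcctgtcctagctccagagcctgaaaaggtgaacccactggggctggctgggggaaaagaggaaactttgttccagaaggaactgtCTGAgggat
Snord110: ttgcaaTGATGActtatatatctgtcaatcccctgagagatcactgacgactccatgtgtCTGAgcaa
Snord118: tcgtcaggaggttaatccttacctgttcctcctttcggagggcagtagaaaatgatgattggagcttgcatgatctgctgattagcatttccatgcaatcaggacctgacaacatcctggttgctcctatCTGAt

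For the H/ACA snoRNAs, capitals mark ACA in the last 8 bases and the first ANANNA match (H box) within 20 bases of the middle. Other ANANNA matches can lie closer to the middle. Snora81, at chr16:23110756-23110933 on the plus strand, and Snora21, at chr11:97781639-97781775 on the minus strand, had the highest levels of the class, and no ACA was found in the last 8 bases of the Snora81 transcript. Snora20, at chr17:12922790-12922917 on the plus strand, and Snora69, at chrX:37082912-37083042 on the minus strand, had the smallest p-values of all members.
Snora81: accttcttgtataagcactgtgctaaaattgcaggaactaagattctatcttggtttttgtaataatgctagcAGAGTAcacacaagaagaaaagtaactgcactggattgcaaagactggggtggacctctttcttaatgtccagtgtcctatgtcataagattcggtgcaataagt
Snora21: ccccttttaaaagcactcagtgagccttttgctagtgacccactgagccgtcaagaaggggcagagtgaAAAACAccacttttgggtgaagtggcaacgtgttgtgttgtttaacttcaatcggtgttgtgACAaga
Snora20: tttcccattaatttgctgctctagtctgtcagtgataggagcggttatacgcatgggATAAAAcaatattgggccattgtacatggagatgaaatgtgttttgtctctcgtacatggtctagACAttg
Snora69: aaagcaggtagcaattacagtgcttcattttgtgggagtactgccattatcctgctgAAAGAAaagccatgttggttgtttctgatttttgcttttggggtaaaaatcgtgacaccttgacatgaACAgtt

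Of the 86 snoRNAs, 85 matched a GENCODE snoRNA entry, 52 of them C/D and 33 H/ACA. On the transcribed strand, TGATGA stood in the first 40 bases of 37 of 52 C/D snoRNAs (71.2%) and of 0 of 33 H/ACA snoRNAs, against 0.84% of 27025 promoter windows of 82 bases. CTGA stood in the last 20 bases of 50 of 52 C/D snoRNAs (96.2%), against 9.09% of H/ACA snoRNAs and 8.49% of the same windows. ACA stood in the last 8 bases of 31 of 33 H/ACA snoRNAs (93.9%), against 15.4% of C/D snoRNAs and 9.17% of windows of 133 bases. ANANNA within 20 bases of the middle was less specific, in 90.9% of H/ACA snoRNAs, 55.8% of C/D snoRNAs and 44.8% of windows. The symbol classes and the sequences went together most closely for CTGA and ACA. The RefSeq model, whose length gave whole implied reads for 83 of 86 snoRNAs, was at least 10 bases shorter than the GENCODE transcript for 41 snoRNAs. For Snora20 it covers bases 68 to 128 of the 128 shown, without the H box, and for Snord17 bases 15 to 235 of the 238 shown, without the C box. A level per length therefore depends on the model used, which touches every comparison of levels between members. When 1 member is compared between libraries, its own length divides all values alike. The models of all rows still enter the scale of each library, since TPM sums to a fixed total.

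Whole reads implied by the TPM values totalled 10985225, 10890762 and 12728456 in MecomWT:R751W libraries 1, 2 and 3, and 11598986, 11469156 and 12735119 in WT libraries 1, 2 and 3. A snoRNA had between 3 and 4578 implied reads in a library, and 25 of 86 had fewer than 50 in every library. The implied reads of a snoRNA summed over all 6 libraries had a median of 405. Mecom itself had 50.9, 39.95 and 44.0 TPM in MecomWT:R751W libraries and 42.9, 34.9 and 36.9 TPM in WT libraries, and a substitution cannot be checked from a level. Of the markers that define the sort, Kit, Ly6a (Sca-1) and Slamf1 (CD150) summed to 158 to 195 TPM in MecomWT:R751W libraries and 184 to 221 TPM in WT libraries. Kit made up most of that sum. By gene, log2 fold changes were -0.21 for Kit, -0.24 for Ly6a and 0.39 for Slamf1. Slamf1 had 16.5, 12.2 and 14.7 TPM in MecomWT:R751W libraries and 10.1, 9.50 and 12.8 TPM in WT libraries. Cd48, which the sort selects against, had 2.27 to 4.10 TPM in MecomWT:R751W libraries and 1.02 to 2.18 TPM in WT libraries. Of 15 markers of other blood cells, 6 had a row in the table used here, with sums of 98.7 to 136 TPM in MecomWT:R751W libraries and 108 to 119 TPM in WT libraries. Nearly all of that sum was Itga2b and Pf4, and Mpo, a granulocyte precursor gene, had at most 1.01 TPM in MecomWT:R751W libraries and 1.60 TPM in WT libraries. The part of these markers in the results was not tested.

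MecomWT:R751W library 2 stood apart from the other 5 libraries in the level of most snoRNAs. Of 86 snoRNAs, 55 had their highest value in it (36 of 53 C/D and 19 of 33 H/ACA), against 6.27% of the 16655 rows tested. None had its lowest value there. The other MecomWT:R751W libraries held the low end: 36 snoRNAs were lowest in library 1 (8.75% of all rows were) and 33 were lowest in library 3 (7.82% of all rows). On the log2(TPM + 1) scale, library 2 lay above the mean of the other 5 by a median of 0.53 over C/D snoRNAs and 0.36 over H/ACA snoRNAs, and below it by a median difference of -0.11 over Snhg and Gas5 rows and -0.15 over all rows. Protein-coding rows took 29.7%, 26.0% and 28.9% of TPM in MecomWT:R751W libraries 1, 2 and 3, and 30.1%, 25.9% and 28.9% in WT libraries 1, 2 and 3, so this share was low in library 2 of both groups. Set against the genes that hold them, snoRNAs were also raised in WT library 2, as given below. Results below are therefore given with and without MecomWT:R751W library 2, a library singled out after its values were seen.

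**Figure D1:**
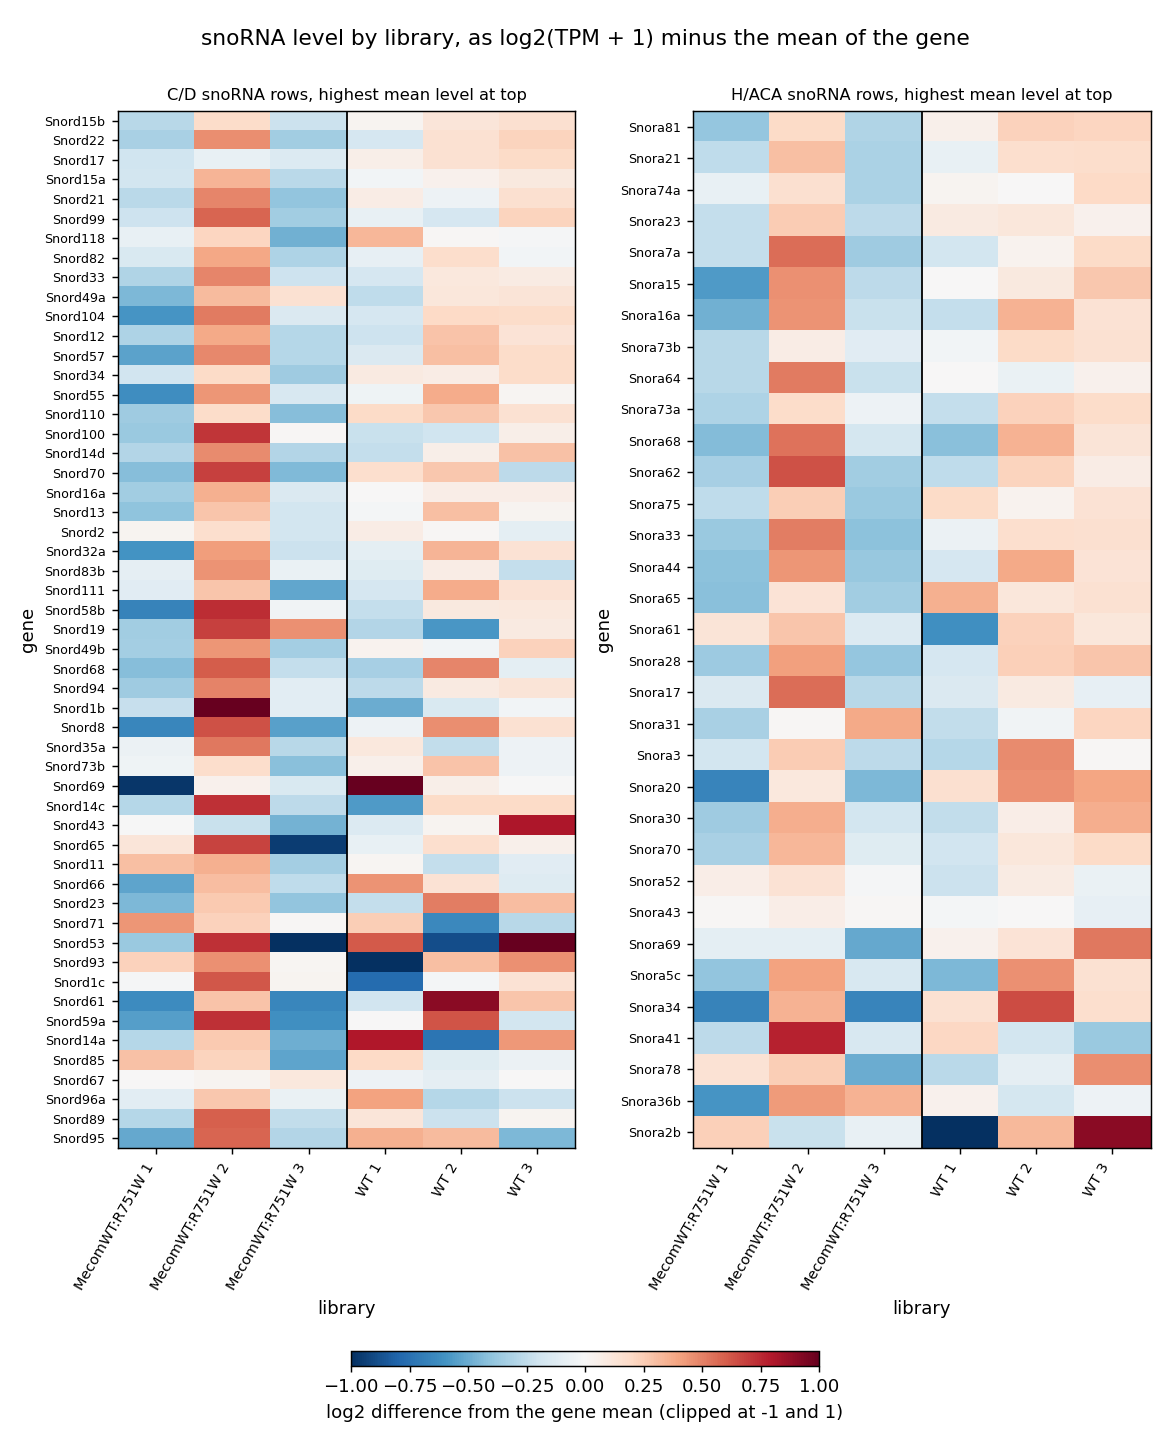
Level of each of the 53 C/D (left) and 33 H/ACA (right) snoRNAs in the 3 MecomWT:R751W libraries and then the 3 WT libraries, as log2(TPM + 1) minus the mean of the gene over all 6 libraries; red is above and blue below that mean. The second column, MecomWT:R751W library 2, holds the highest value of 55 of the 86 snoRNAs, and the columns on either side of it hold most of the lowest values.

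As a class, C/D snoRNAs took 1.25%, 1.89% and 1.26% of TPM in the MecomWT:R751W libraries, against 1.48%, 1.61% and 1.66% in the WT libraries. The means were 1.47% ± 0.369 in MecomWT:R751W and 1.59% ± 0.0923 in WT libraries (SD, n = 3 each). Libraries 1 and 3 of MecomWT:R751W were the lowest of the 6 and library 2 the highest, so the groups overlapped and the SD of the MecomWT:R751W libraries exceeded the difference of the means. H/ACA snoRNAs had the same order, with 0.683%, 1.02% and 0.686% in MecomWT:R751W libraries and 0.804%, 0.927% and 0.933% in WT libraries. Their means were 0.796% ± 0.193 in MecomWT:R751W and 0.888% ± 0.0726 in WT libraries (SD, n = 3 each). Host genes took 0.0882%, 0.0829% and 0.0841% in MecomWT:R751W libraries and 0.0967%, 0.0806% and 0.0856% in WT libraries, with WT library 1 the highest of the 6. The log2 ratio of the MecomWT:R751W mean share over the WT mean share was -0.11 for C/D snoRNAs, -0.16 for H/ACA snoRNAs and -0.04 for host genes. Without MecomWT:R751W library 2 it was -0.34 for C/D and -0.38 for H/ACA snoRNAs. Without MecomWT:R751W library 1 it was -0.01 and -0.06 for the same classes, and without library 3 -0.02 and -0.06. The difference of the class shares thus rested on which MecomWT:R751W libraries entered, and it was not tested with 3 libraries a group. In bulk RNA, fewer cells of a type and less RNA per cell cannot be told apart.

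**Figure D2:**
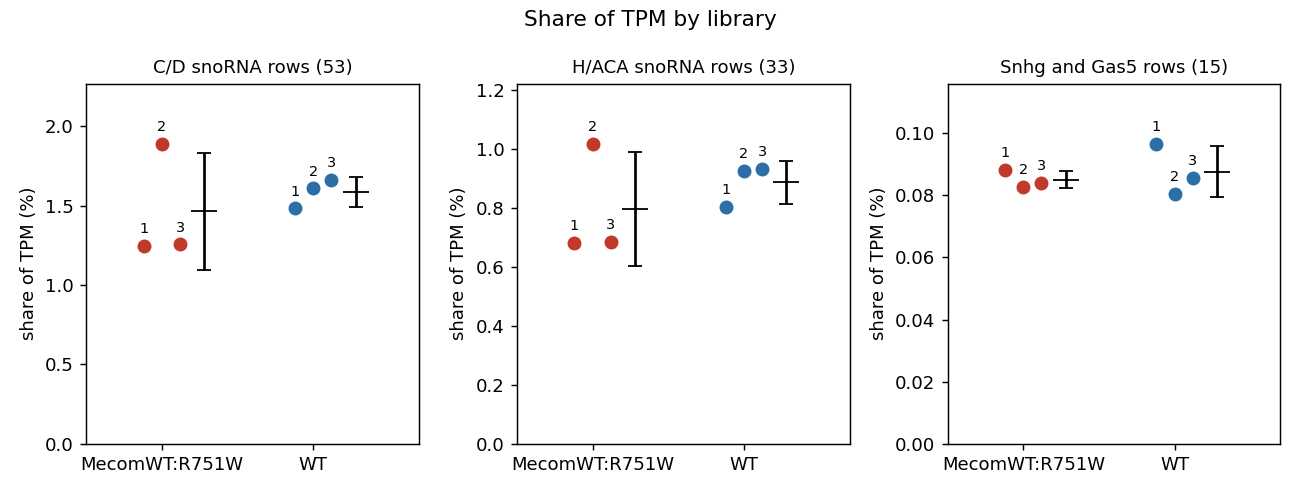
Share of TPM (percent, axes from 0) taken by C/D snoRNAs, H/ACA snoRNAs and host genes in each MecomWT:R751W library (red, left) and WT library (blue, right), with the replicate number above each point and the mean and SD of the 3 libraries beside it. MecomWT:R751W library 2 is the highest point for both snoRNA classes (1.89% and 1.02%) and lies within the others for host genes.

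Among C/D snoRNAs the mean level ran from 12.6 to 3307 TPM with a median of 89.5, and the 6 highest were Snord15b, Snord22, Snord17, Snord15a, Snord21 and Snord99. Snord15b, which lies in an intron of the ribosomal protein gene Rps3, had 2712, 3726 and 2822 TPM in MecomWT:R751W libraries and 3338, 3566 and 3676 TPM in WT libraries. Only MecomWT:R751W libraries 1 and 3 lay below all WT libraries. Snord15a, the other resident of Rps3, had 1141, 1643 and 1073 TPM in MecomWT:R751W libraries and 1274, 1331 and 1386 TPM in WT libraries, with the same libraries at both ends. Snord22, known from Xenopus as U22 and needed there for 18S rRNA maturation, had 1647, 2854 and 1622 TPM in MecomWT:R751W libraries and 1842, 2298 and 2413 TPM in WT libraries. Library 2 of MecomWT:R751W was the highest of the 6 and libraries 1 and 3 were the lowest.

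Snord17 behaved differently from these. It had 1507, 1647 and 1575 TPM in MecomWT:R751W libraries and 1801, 1929 and 1979 TPM in WT libraries, so the groups did not overlap. Its log2 fold change was -0.27 (SE 0.13) with an adjusted p of 0.902 in limma over all rows, and -0.30 without MecomWT:R751W library 2. Snord17 is 1 of 5 members of at least 180 bases in RefSeq, with Snora23, Snora73a, Snora73b and Snora74a. In these 5, library 2 of MecomWT:R751W lay above the mean of the other 5 libraries by -0.09 to 0.30 on the log2 scale (median 0.20), against a median of 0.48 in the 81 shorter snoRNAs. That length limit was chosen after the values were seen. Snord21, in the ribosomal protein gene Rpl5, had 1024, 1730 and 936 TPM in MecomWT:R751W libraries and 1298, 1189 and 1378 TPM in WT libraries. Snord99, in Snhg12, had 574, 993 and 523 TPM in MecomWT:R751W libraries and 631, 591 and 774 TPM in WT libraries. In both, MecomWT:R751W library 2 was the highest of the 6 and libraries 1 and 3 the lowest. Log2 fold changes of these 6 C/D snoRNAs ran from -0.27 to 0.02 (SE 0.13 to 0.21), with adjusted p-values in limma of 0.902 to 1.

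The H/ACA snoRNAs had mean levels of 16.0 to 1543 TPM with a median of 138, and the 6 highest were Snora81, Snora21, Snora74a, Snora23, Snora7a and Snora15. Snora81, in the translation factor gene Eif4a2, had 1161, 1737 and 1231 TPM in MecomWT:R751W libraries and 1575, 1787 and 1764 TPM in WT libraries. Library 2 of MecomWT:R751W lay inside the WT range and the other 2 below it. Snora21, in Rpl23, had 1061, 1561 and 1017 TPM in MecomWT:R751W libraries and 1207, 1427 and 1432 TPM in WT libraries. Snora74a, in Snhg4, had 1046, 1230 and 880 TPM in MecomWT:R751W libraries and 1118, 1101 and 1260 TPM in WT libraries. Snora23, in the nuclear import gene Ipo7, had 429, 602 and 422 TPM in MecomWT:R751W libraries and 538, 548 and 523 TPM in WT libraries. The WT values of Snora23 were close together (SD 12.9, n = 3), and the MecomWT:R751W values lay on both sides of them (SD 102, n = 3). Snora7a, in Rpl32, had 293, 510 and 270 TPM in MecomWT:R751W libraries and 304, 355 and 394 TPM in WT libraries. Snora15, in the chaperonin gene Cct6a, had 196, 399 and 242 TPM in MecomWT:R751W libraries and 292, 310.5 and 350 TPM in WT libraries. These 6 members shared the low values of MecomWT:R751W libraries 1 and 3. Their log2 fold changes ran from -0.33 to -0.02 (SE 0.15 to 0.21), with adjusted p-values in limma of 0.905 to 1.

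A few snoRNAs are needed for cleavage of pre-rRNA rather than for a modification. Snora73a and Snora73b are copies of U17, whose yeast counterpart snR30 is required for 18S rRNA, and both lie in Snhg3. Snora73a had 200.2, 283 and 239 TPM in MecomWT:R751W libraries and 210.0, 292 and 282 TPM in WT libraries. Snora73b had 236, 302 and 264 TPM in MecomWT:R751W libraries and 281, 328 and 319 TPM in WT libraries. The pair are close in sequence, so reads may be split between them by the counting, and both values are uncertain. Snord118 (U8), which is transcribed from its own promoter and in Xenopus is needed for 5.8S and 28S rRNA, had 444, 542 and 335 TPM in MecomWT:R751W libraries and 589, 472 and 463 TPM in WT libraries. The groups overlapped, and WT library 1 was the highest. Snord13 (U13), also from its own promoter and in human cells a guide for acetylation of 18S rRNA, had 83.5, 134 and 97.1 TPM in MecomWT:R751W libraries and 109, 137 and 113 TPM in WT libraries. No row carried a Snord3 symbol, and the U3 snoRNA, the main factor of early 18S cleavage, stood under Rnu3 symbols, which are not members. Rows for the imprinted clusters Snord113 to Snord116 numbered 0 in the table used here.

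The host genes Gas5 and Snhg1, 3 to 8, 10, 12, 14 to 17 and 20 are spliced non-coding RNAs. Gas5 is a short-lived RNA that builds up when translation is blocked, since translation feeds it into nonsense-mediated decay. It was the highest of the 15 and had 502, 445 and 417 TPM in MecomWT:R751W libraries and 515, 438 and 448.5 TPM in WT libraries. Its log2 fold change was -0.04 (SE 0.13, adjusted p of 1 in limma), and the groups overlapped. Snhg1 had 91.7, 87.5 and 107 TPM in MecomWT:R751W libraries and 111, 92.8 and 92.2 TPM in WT libraries. Snhg8 had 66.8, 60.3 and 64.9 TPM in MecomWT:R751W libraries and 64.2, 62.9 and 74.9 TPM in WT libraries. Neither showed library 2 of MecomWT:R751W at the top. Snhg5 had 55.5, 58.2 and 63.6 TPM in MecomWT:R751W libraries and 66.1, 44.1 and 54.0 TPM in WT libraries. Snhg12 had 44.4, 45.1 and 36.7 TPM in MecomWT:R751W libraries and 52.1, 41.4 and 54.4 TPM in WT libraries. Snhg15 had 34.9, 25.4 and 29.8 TPM in MecomWT:R751W libraries and 36.3, 26.7 and 30.3 TPM in WT libraries. All 15 host genes overlapped between the groups, as did most rows of the table (9.19% of all rows did not).

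Among the lower host genes named, Snhg3 and Snhg6 spread widely within a group. Snhg3 had 6.03, 15.5 and 19.9 TPM in MecomWT:R751W libraries and 20.1, 9.19 and 13.1 TPM in WT libraries, from 19 to 73 implied reads a library. Snhg6 had 10.6, 11.7 and 20.8 TPM in MecomWT:R751W libraries and 17.4, 22.1 and 16.6 TPM in WT libraries. Its log2 fold change of -0.41 (SE 0.22) had an adjusted p of 0.924 in limma. Snhg14, the long host of the imprinted Snord115 and Snord116 clusters, averaged 0.39 TPM over all libraries and was the only member under the minimum mean of 1 TPM for testing. Of the 15 host genes, 0 had their highest value in MecomWT:R751W library 2, against 6.27% of all rows, and 6 had their lowest value there. Low values in that library were not particular to host genes. Its median difference from the mean of the other libraries was -0.11 over host genes and -0.15 over all rows.

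**Figure D3:**
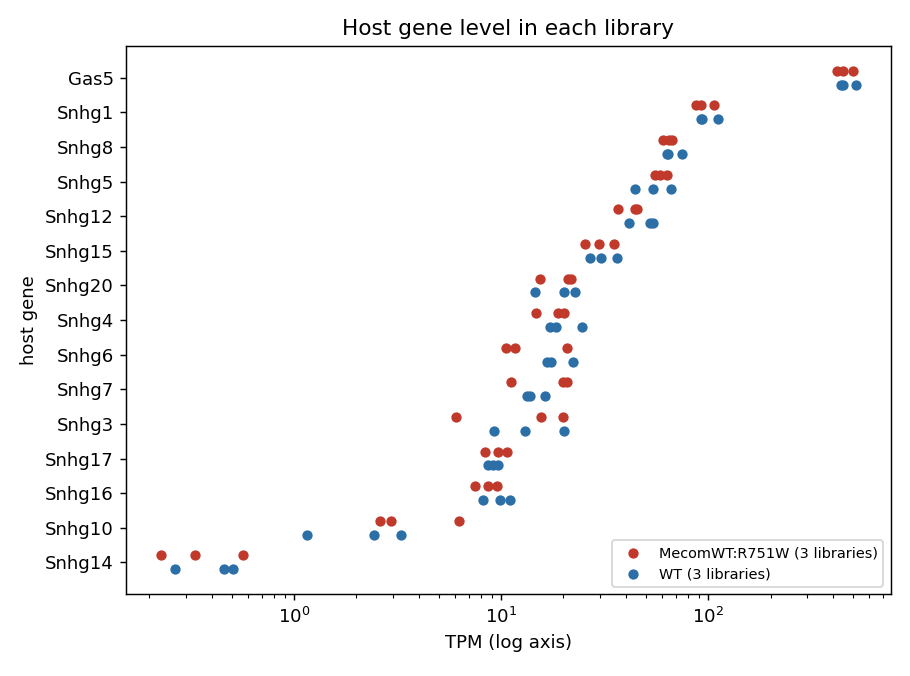
Level of each host gene in TPM (log axis) in the 3 MecomWT:R751W libraries (red, upper row of each gene) and the 3 WT libraries (blue, lower row). Points of both groups overlap for all 15 genes, from Gas5 at 417 to 515 TPM down to Snhg14 below 1 TPM.

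Many snoRNA host genes and ribosomal protein genes are known to begin transcription in a run of pyrimidines, the 5′ TOP motif through which mTOR controls translation. Starts of 4 host genes are shown from the RefSeq promoter table (GRCm38.p6), 15 bases before the start and 30 from it on the transcribed strand, with the first 5 transcribed bases in capitals. They are one of the listed starts of Gas5 at chr1:161035151-161035195 on the plus strand, Snhg8 at chr3:123508307-123508351 on the minus strand, Snhg7 at chr2:26640215-26640259 on the minus strand and Snhg1 at chr19:8723472-8723516 on the plus strand.
Gas5: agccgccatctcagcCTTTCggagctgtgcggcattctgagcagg
Snhg8: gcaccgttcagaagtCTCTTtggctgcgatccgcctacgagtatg
Snhg7: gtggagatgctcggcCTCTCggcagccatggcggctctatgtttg
Snhg1: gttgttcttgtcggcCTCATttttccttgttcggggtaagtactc
A C followed by 4 bases that are each C or T was found at a listed start of 3 of 13 host genes with an entry (23.1%), the first 3 shown. The share was 22.4% of 58 ribosomal protein genes and 3.23% of 11712 rows with an entry. Snhg1 begins with CTCAT, which has an A in the run.

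By coordinates, 82 of the 86 snoRNAs lay within 60 genes of the table, on the same strand wherever the tables give it. Protein-coding genes held 64 of them, and 21 ribosomal protein genes held 27. The members Snord118, Snord13, Snord89 and Snora78 had no such gene. No source used here says whether the counting kept apart reads of a snoRNA and of the unspliced host around it. The snoRNA level was above the host level, per length, in 42 of 82 pairs, and over the 82 pairs the 2 levels had a Spearman correlation of 0.18, with libraries shared by both and several snoRNAs sharing a host. In MecomWT:R751W library 2, the snoRNA lay further above the mean of the other 5 libraries than its host did in 75 of 82 pairs. The median departure of that library was 0.46 for the snoRNAs and -0.08 for the 60 hosts, on the log2(TPM + 1) scale. Of these 60 hosts, 1 had its highest value there, against 6.27% of all rows. The log2 level of a snoRNA minus that of its host, centred per pair, had a median of 0.437 in MecomWT:R751W library 2. It was also raised in WT library 2, at 0.264. The other medians were -0.356 and -0.255 in MecomWT:R751W libraries 1 and 3, and -0.183 and 0.071 in WT libraries 1 and 3. Between the genotypes, the median over pairs of the snoRNA log2 fold change minus that of its host was -0.09. In limma, 0 of 60 hosts had an unadjusted p under 0.05, against 5.97% of all rows.

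**Figure D4:**
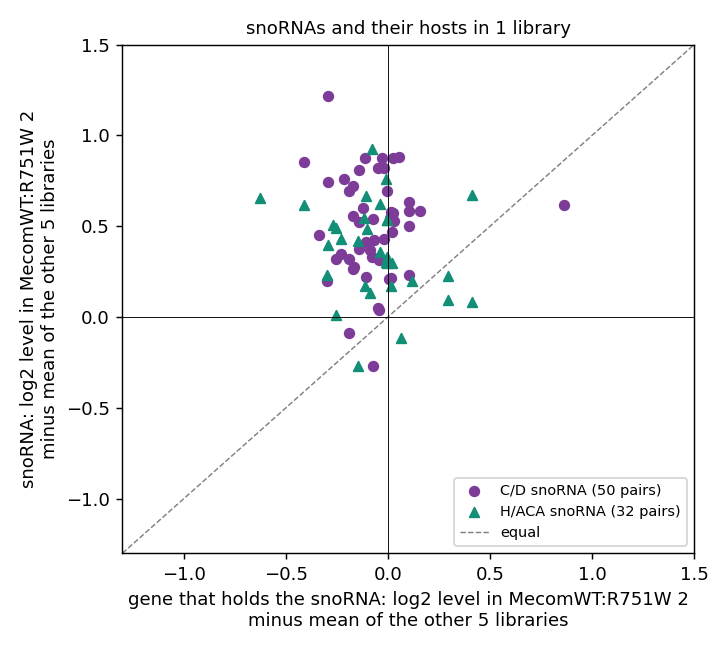
Departure of MecomWT:R751W library 2 from the mean of the other 5 libraries, in log2(TPM + 1), for each snoRNA (vertical axis) and for the gene that holds it (horizontal axis); circles are the C/D and triangles the H/ACA snoRNAs of the 82 pairs, and the dashed line marks equal departure. In 75 of 82 pairs the point lies above the line, while the hosts gather near 0.

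Hosts with several residents showed how far snoRNAs of 1 transcript went together. Rpl13a, which holds Snord32a, Snord33, Snord34 and Snord35a, a set studied in hamster and mouse cells under lipid overload, had 711, 757 and 675 TPM in MecomWT:R751W libraries and 769, 626 and 748 TPM in WT libraries. Of its residents, Snord33 was the highest, with 240.1, 415 and 255 TPM in MecomWT:R751W libraries and 263, 318 and 314 TPM in WT libraries. Snord34 had 162, 211 and 144 TPM in MecomWT:R751W libraries and 196, 194 and 210.0 TPM in WT libraries. The log2 fold changes were -0.26 for Snord32a, -0.02 for Snord33, -0.23 for Snord34 and 0.13 for Snord35a, against 0.00 for Rpl13a itself, and no sign was shared by all 4. Snhg12 holds Snord99, Snora61, Snora44 and Snora16a, with log2 fold changes of 0.02, 0.18, -0.23 and -0.17, against -0.22 for Snhg12. All 4 residents were highest in MecomWT:R751W library 2, and Snhg12 was not.

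The genes for snoRNP proteins also hold snoRNAs. Nop56, a core protein of C/D particles, had 80.2, 75.0 and 75.6 TPM in MecomWT:R751W libraries and 79.8, 64.5 and 72.3 TPM in WT libraries. Its resident Snord57 had 125, 255 and 149 TPM in MecomWT:R751W libraries and 165, 224 and 207 TPM in WT libraries. Nop58, its partner in the particle, holds Snord11 and Snord70, which had log2 fold changes of 0.22 and -0.12, against 0.00 for Nop58. Gnl3, a nucleolar GTP-binding protein, holds Snord19 and Snord69, which had log2 fold changes of opposite sign. Snord19 had 66.8, 137 and 117 TPM in MecomWT:R751W libraries and 69.1, 56.3 and 90.6 TPM in WT libraries. Snord69 had 25.8, 53.2 and 46.4 TPM in MecomWT:R751W libraries and 106, 53.6 and 51.3 TPM in WT libraries. Both groups overlapped for both snoRNAs, which rest on 11 to 59 implied reads a library, and Gnl3 itself had a log2 fold change of 0.04.

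The comparison of the genotypes was made with limma over 16655 rows, adjusted by the Benjamini-Hochberg method. No member passed an adjusted p of 0.05: 0 of 100 tested were called, against 0% of all 16655 rows, and the smallest adjusted p of a member was 0.412. At an unadjusted p under 0.05, 2 members were higher in MecomWT:R751W libraries and 8 lower, against 2.74% and 3.23% of all rows (10 of 100 in all, against 5.97%). The groups did not overlap for 2 members that were higher and 3 that were lower, against 4.50% and 4.70% of all rows (5 in all, against 9.19%). These counts are near the background apart from the 8 lower members. Log2 fold changes were below 0 for 60 of 86 snoRNAs, against 51.0% of all rows, with medians of -0.12 over C/D snoRNAs, -0.12 over H/ACA snoRNAs and -0.05 over host genes, and of -0.00 over all rows.

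Without MecomWT:R751W library 2, 73 of 86 snoRNAs had a log2 fold change below 0, against 38.3% of all rows, and their median was -0.33, against 0.05 over all rows. At an unadjusted p under 0.05, 41 members were then lower, against 2.70% of all rows, and 1 was higher, against 4.22% of all rows. At the adjusted threshold 0 members passed, against 0% of all 16732 rows (smallest adjusted p of a member in limma 0.119). With all 6 libraries the same 2 counts were 8 and 2. MecomWT:R751W library 2 was left out because its snoRNA values were high, so lower snoRNA fold changes without it follow from that choice. The counts without it are no test of a difference between the genotypes. Without MecomWT:R751W library 1, 44 of 86 snoRNAs were below 0, against 56.8% of all rows, with a median of -0.00. At an unadjusted p under 0.05, 6 members were then higher and 3 lower, against 2.17% and 4.07% of all rows, and 0 passed the adjusted threshold, against 0.0781% of all rows (smallest adjusted p of a member in limma 0.103). Without library 3, 50 of 86 were below 0, against 57.9% of all rows, with a median of -0.03. In that setting 4 members were higher and 3 lower at an unadjusted p under 0.05, against 1.88% and 3.52% of all rows. At the adjusted threshold 0 members passed, against 0% of all 16627 rows.

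**Figure D5:**
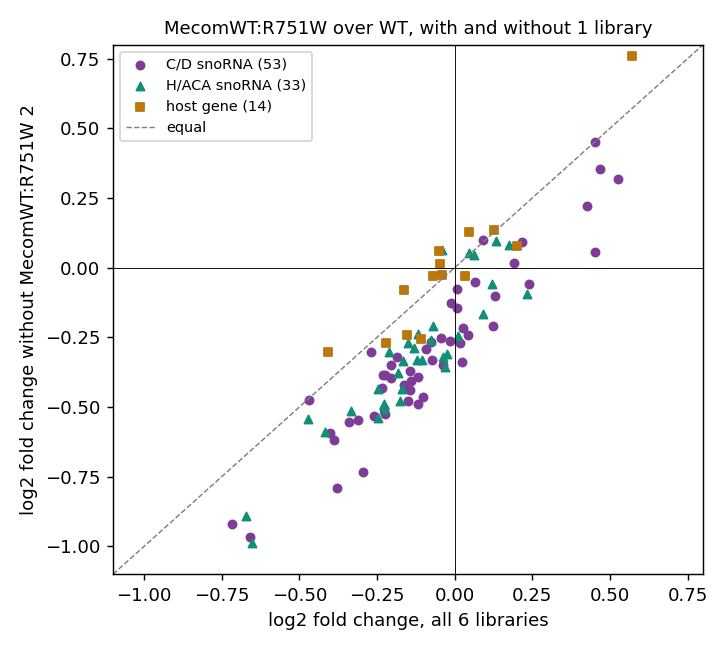
Log2 fold change of MecomWT:R751W over WT for each tested member with all 6 libraries (horizontal axis) and without MecomWT:R751W library 2 (vertical axis); circles are C/D snoRNAs, triangles H/ACA snoRNAs and squares host genes, and the dashed line marks equal values. Most snoRNAs lie below the line, with a median of -0.12 on the horizontal and -0.33 on the vertical axis, while host genes lie on both sides of it. The omitted library was singled out for its high snoRNA values, so the place of the snoRNAs below the line follows from that choice.

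The member of smallest p was Snora20, an H/ACA snoRNA in the chaperonin gene Tcp1. It had 45.5, 78.2 and 52.7 TPM in MecomWT:R751W libraries and 80.9, 99.8 and 95.4 TPM in WT libraries, so every MecomWT:R751W library lay below every WT library. The implied reads were 20, 38 and 27 in MecomWT:R751W libraries and 37, 50 and 50 in WT libraries. The log2 fold change was -0.67 (SE 0.18), with an unadjusted p of 0.00253 and an adjusted p of 0.412 in limma, and it was -0.89 without MecomWT:R751W library 2. Tcp1 had a log2 fold change of 0.05. Snora69, in the ribosomal protein gene Rpl39, had 52.3, 52.5 and 39.0 TPM in MecomWT:R751W libraries and 57.9, 61.8 and 81.1 TPM in WT libraries. These groups did not overlap either. Its log2 fold change was -0.47 (SE 0.16), with an adjusted p of 0.630 in limma.

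The remaining 8 members with an unadjusted p under 0.05 overlapped between the groups and are named after their values were seen. Lower were Snora65 in Rpl12 (log2 fold change -0.42), Snora34 in Kansl2 (-0.65), Snord110 in Nop56 (-0.40), Snord69 (-0.72), Snord61 in Rbmx (-0.66) and Snord43 in Rpl3 (-0.47). Higher were Snord71 in Ap1g1 (0.45) and Snord19 (0.53). Their adjusted p-values in limma ran from 0.699 to 0.829. Snord110 had 108, 157 and 103 TPM in MecomWT:R751W libraries and 158, 167 and 154 TPM in WT libraries. Library 2 of MecomWT:R751W reached the WT range and the other 2 stayed below it. Snora65 had 129, 190.4 and 135 TPM in MecomWT:R751W libraries and 221, 187 and 192 TPM in WT libraries, with the same pattern. The hosts of these members had log2 fold changes between -0.16 and 0.09.

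No gene listed for the proteins that bind or process snoRNAs passed the threshold. Of 45 genes listed for the snoRNP core, assembly, trimming, cap modification, nonsense-mediated decay and RNA polymerase I transcription, 44 were tested. In limma 0 of the 44 were called, against 0% of all 16655 rows. Of the 44, 25 lay above 0 and 19 below, and their median log2 fold change was 0.02. At an unadjusted p under 0.05, 1 of the 44 was higher and 0 lower, against 2.74% and 3.23% of all rows, so the count is near the background. That gene was Znhit3, an assembly factor of C/D particles, with a log2 fold change of 0.46 (SE 0.17), named after its value was seen. Fbl, the methyltransferase fibrillarin, had 41.5, 35.2 and 32.0 TPM in MecomWT:R751W libraries and 37.8, 27.4 and 32.4 TPM in WT libraries. Nop58 had 194, 173 and 159 TPM in MecomWT:R751W libraries and 220.2, 151 and 160.5 TPM in WT libraries. Snu13, which binds the box motif directly, had a log2 fold change of 0.04. Dkc1, the pseudouridine synthase dyskerin, had 65.2, 67.2 and 63.0 TPM in MecomWT:R751W libraries and 69.9, 56.6 and 58.5 TPM in WT libraries. Its partners Nhp2, Nop10 and Gar1 had log2 fold changes of -0.01, -0.30 and 0.11. In all 8 core proteins the groups overlapped, as in most rows of the table (9.19% of all rows did not overlap).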

How the data were processed

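Per the labels, RNA of sorted cells was sequenced as 6 libraries in 2 groups of 3. The authors deposited 1 table of TPM. Per the submitters' processing notes, the authors used mm10 and DESeq2, with no role given. No source used here names an aligner, a counter, its strand setting or the annotation. Values were tested as log2(TPM + 1) with limma 3.58.1 (R 4.3.3), with a trend of variance on level and no term beside genotype, over rows with a mean of at least 1 TPM, with Benjamini-Hochberg adjustment at 0.05. The added 1 TPM understates changes of low genes. Implied reads came from whole-number ratios of TPM (tolerance 0.001 reads) and were found for 99.96% of rows. They describe depth and enter 1 added alternative. Their scale was set on the RefSeq lengths of short RNA rows. For snoRNAs the RefSeq length was taken wherever it gave whole reads within a wider tolerance, which held for 83 of 86. That match is therefore partly built in. For Snord85, Snord96a and Snord95, whole reads needed lengths of 195, 154 and 136 bases, against 65, 77 and 68 in RefSeq. Implied reads can be off by a common factor, so those of these members may be too high. Scripts used Python 3.11.15, pandas 2.3.3 and numpy 2.4.6, and the test was checked on simulated data.

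Members and lists were chosen with earlier results of these data known. Named by rule were the 6 highest members of each class, up to 5 members per class and direction with p under 0.05 and no overlap, Snord3, Snord13, Snord118, Snord113 to Snord116, 7 hosts and 8 core proteins. Other members were named as residents of a host or after their values were seen.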

Additional observations from a re-analysis of the deposited data

How the results depend on the processing

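Under 16 other settings listed at the outset and 2 chosen after seeing the data (scaling to the snoRNA total, and limma-voom on implied reads), 0 members and 0 listed protein genes passed the adjusted threshold. Over all rows the number called was 0 in most settings and at most 53 of 16655, with voom. The 0 members are near that background. Departures from the group mean correlated weakly between libraries of the same replicate number (0.14, 0.09 and 0.08). Libraries of different numbers gave -0.09 to 0.01, so each library correlated best with its own number. Whether the numbers mark pairs or a batch was not tested. With the replicate block, 0 members were called, against 0 of all 16655 rows, and the smallest adjusted p of a member in limma was 0.311. In that setting 2 members were higher and 10 lower at an unadjusted p under 0.05, against 4.38% and 5.32% of all rows. With sample weights, 72 of 86 snoRNAs were below 0 (48.7% of all rows), and 1 member was higher and 27 lower at an unadjusted p under 0.05, against 4.37% and 4.23% of all rows (smallest adjusted p in limma 0.0873). Voom called 53 rows, 24 higher and 29 lower, with 0 members among them (smallest adjusted p of a member 0.255). Leaving out 1 library at a time gave log2 ratios of shares from -0.34 to -0.01 for C/D snoRNAs and from -0.38 to -0.06 for H/ACA snoRNAs. For host genes the ratios ran from -0.10 without WT library 2 to 0.03 without WT library 1, so their sign was not kept.

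Of 432 values of 24 named genes under these settings, 401 kept their sign and 31 values, in 12 genes, changed it, none of them past the threshold. Scaling to the snoRNA total sets the class total equal in all libraries by construction and moves the median of all rows to 0.14, so its signs say nothing on the class. With it, log2 fold changes turned to 0.014 for Snord22, 0.080 for Snord15a, 0.036 for Snord21, 0.004 for Snora74a, 0.131 for Snora7a, 0.116 for Gas5, 0.107 for Snhg1, 0.083 for Snhg8, 0.103 for Snhg15 and 0.032 for Snhg3. With sample weights they turned to -0.244 for Snord99, 0.019 for Snhg1 and 0.012 for Snhg15. The cause was not tested. Leaving out 1 library gave -0.265 to 0.042 for Snord15a, -0.393 to 0.050 for Snord21, -0.270 to 0.192 for Snord99, -0.309 to 0.148 for Snora7a, -0.112 to 0.033 for Gas5, -0.132 to 0.039 for Snhg1, -0.426 to 0.360 for Snhg3, -0.017 to 0.269 for Snhg5, -0.116 to 0.008 for Snhg8 and -0.160 to 0.064 for Snhg15. Low reads limit 25 of 86 snoRNAs, which had under 50 implied reads in every library.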

Other observations

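Guide RNAs outside the symbol rule were split in how they stood in MecomWT:R751W library 2. Rows with a symbol of U3, the snoRNA of early 18S rRNA cleavage, include Rnu3b-ps1, a pseudogene by its symbol. The 5 rows together took 0.126%, 0.200% and 0.128% of TPM in MecomWT:R751W libraries and 0.152%, 0.155% and 0.155% in WT libraries. Library 2 held 1.40 times the mean of the other 5 libraries. The highest U3 row, Rnu3a, had 753, 1164 and 743 TPM in MecomWT:R751W libraries and 865, 912 and 913 TPM in WT libraries. The 134 rows of the snoRNA type in RefSeq that are not members took 1.61%, 2.31% and 1.61% in MecomWT:R751W libraries and 1.87%, 1.94% and 2.00% in WT libraries. U3 rows and the Scarna rows given below were not taken out of this set, so the sums can overlap.

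The guide RNAs of Cajal bodies were mixed. The 8 Scarna rows together took 0.403%, 0.401% and 0.441% in MecomWT:R751W libraries and 0.456%, 0.448% and 0.438% in WT libraries, and library 2 of MecomWT:R751W held 0.917 times the mean of the others. That sum is mostly Scarna10, Scarna2 and Scarna13. By row, library 2 of MecomWT:R751W lay above the mean of the other 5 on the log2(TPM + 1) scale for Scarna9 (0.74), Scarna3b (0.62), Scarna3a (0.54) and Scarna8 (0.29). It lay below that mean for Scarna6 (-0.27), Scarna10 (-0.20), Scarna2 (-0.10) and Scarna13 (-0.08). The highest, Scarna10, had 1916, 1745 and 2036 TPM in MecomWT:R751W libraries and 2069, 2012 and 2007 TPM in WT libraries. Terc, the telomerase RNA, which ends in an H/ACA domain, had 31.1, 24.0 and 24.0 TPM in MecomWT:R751W libraries and 20.5, 26.7 and 33.7 TPM in WT libraries.

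The ratio of MecomWT:R751W library 2 to the mean of the other 5 libraries was 1.68 for 43 rows of 5S rRNA, 1.52 for 92 rows of tRNA and 1.36 for 90 rows of snRNA without Rn7sk. It was 0.895 for Rn7sk, 0.860 for Rn7s1, 0.833 for Rpph1, 1.05 for Rmrp and 0.907 for protein-coding rows. The cause was not tested.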
